A study of Mus musculus with 22 samples.

Results

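The mouse miR-183 cluster encodes the microRNAs mmu-miR-182-5p, mmu-miR-183-5p and mmu-miR-96-5p, written below without the species prefix, and their levels were followed here in primary hepatocytes exposed to cyclosporin A (CsA). The 3 entries were taken by name from the 1247 microRNAs (miRNAs) of the array, and they were chosen by measured values, because earlier results of the same arrays had shown them higher at 10 µM CsA. Their values against solvent at 10 µM are therefore given as a description without a test. The study measured miRNAs with 22 single-colour Agilent arrays in hepatocytes of C57Bl6 mice, 1 array per biological replicate, to learn which miRNAs differ with CsA dose and time. After 48 h there were 6 arrays of solvent controls (0.5% DMSO), 3 of 10 µM CsA and 3 of 50 µM CsA, and after 24 h there were 5, 3 and 2. The DMSO arrays came from 3 numbered experiments, 2 from each at 48 h and 1, 2 and 2 at 24 h, and the main fit treats them as separate. An IC20 tag in the labels reads 48 h for all 10 µM arrays and 24 h for all 50 µM arrays, at both times. DMSO arrays carry either tag, so dose and tag cannot be told apart among the CsA arrays. All cells were kept in serum-containing medium, and the controls carried the same DMSO as the CsA cultures. The sources used here give neither the age nor the sex of the mice, nor whether animals were pooled or differed between replicates. CsA blocks the phosphatase calcineurin after binding cyclophilin, is used against graft rejection and can harm the liver. One treatment note in the labels names HepG2 cells, whereas the other fields name primary mouse hepatocytes.

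The cluster is transcribed as 1 precursor RNA that is cut into separate hairpins, and each hairpin gives a dominant mature strand that guides repression of messenger RNAs through its seed, the bases near its 5′ end. It is best known from mouse sensory organs, where it is abundant in photoreceptors and hair cells. In mouse liver the sterol-regulated factor SREBP-2 was reported to raise the cluster, with Fbxw7 reported as a target of miR-182 and Insig2 as a target of miR-96, and both miRNAs are also known to repress FoxO messenger RNAs.

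The mature sequences are shown because the seeds decide how far the members can share targets; bases 2 to 8 are in capitals, 5′ to 3′, as RefSeq lists them for GRCm38.p6.
miR-183-5p: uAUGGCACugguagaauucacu
miR-96-5p: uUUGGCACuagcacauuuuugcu
miR-182-5p: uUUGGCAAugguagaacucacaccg
Seed bases 2 to 7 were identical in miR-182-5p and miR-96-5p, and 6 of the 7 bases from 2 to 8 matched. The seed of miR-183-5p matched that of miR-96-5p at 6 of 7 bases and that of miR-182-5p at 5 of 7, in each case with another base inside positions 2 to 7. Aligned from base 1 without gaps, miR-182-5p and miR-183-5p were identical at 18 of 22 positions (81.8%), miR-183-5p and miR-96-5p at 13 of 22 (59.1%), and miR-182-5p and miR-96-5p at 12 of 23 (52.2%). The array's probe sequences were not used here, so whether probes cross-react between the members was not tested. Among the other mature mouse miRNAs of the RefSeq table, only miR-1271-5p carried bases 2 to 8 of miR-96-5p, and with them bases 2 to 7 of miR-182-5p. It has no entry on the array under that name, so the count of array entries with a member's seed was 0.

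All 3 hairpins lie on the minus strand of chromosome 6 in GRCm38.p6. In the direction of transcription, Mir183 comes first (chr6:30169668-30169737), then Mir96 (chr6:30169446-30169551) after 116 bases, and Mir182 (chr6:30165918-30165992) after a further 3453 bases. RefSeq places all 3 inside the noncoding gene Mirc35hg (chr6:30158640-30174125), a stretch of 15486 bases. The 300 bases around the annotated start of Mirc35hg (chr6:30174076-30174375, minus strand, 250 bases before the start and 50 after) are shown because the members moved together across arrays; capitals mark a CCAAT box.
Mirc35hg: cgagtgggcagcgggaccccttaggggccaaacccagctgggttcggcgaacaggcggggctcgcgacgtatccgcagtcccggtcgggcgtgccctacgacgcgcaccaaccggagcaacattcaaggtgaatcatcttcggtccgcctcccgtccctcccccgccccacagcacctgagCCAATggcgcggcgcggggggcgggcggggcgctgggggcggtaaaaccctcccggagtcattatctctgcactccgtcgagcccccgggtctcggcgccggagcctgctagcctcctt
This window had a GC content of 70.3%, against a median of 52.7% over 32851 RefSeq promoter windows of the same length. The CCAAT letters occurred once, from position 182, and 37.4% of all windows held them on either strand. The sterol regulatory core TCACNCCAC, the NFAT core GGAAA, the palindromic E-box CACGTG and the FoxO letters GTAAACA were not found on either strand; 1.24%, 61.3%, 7.15% and 3.65% of all windows held them. These are matches of letters and not measured binding.

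The names of the arrays need care before any dose is read. Each of the 22 columns of the deposited value table was rebuilt from exactly 1 spot file to within 1e-06, but only 6 columns carried the sample name of that file. In the 16 others, 8 CsA columns held a file named for the opposite dose and 8 DMSO columns a file named for a different replicate, with time point and experiment number kept in all 16. The labels do not settle which source is right. Results below use the value-table names, and the files' own names are given beside the results on dose. The scanner software listed 201 to 400 miRNAs as detected per array. Negative controls averaged 215.3 on replicate 3 of 50 µM at 24 h, with 33.7 as the next highest value. All 3 arrays of 50 µM at 48 h lay on 1 of the 3 slides, together with 1 array of 10 µM and 1 of DMSO from that time, so values within that slide are given beside the results. The scaling percentile of replicate 3 of 50 µM at 48 h was 605.4, the highest of the range from 188.5.

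Levels are log2 ratios of a miRNA's processed signal, a background-corrected intensity, to its array's scaling level, the 75th percentile over 281 probes well above background on all arrays. The floor was -4.41. The members were dim, with miR-182-5p at a median signal of 35.6 units (18.2 to 60.4), miR-183-5p at 22.9 (13.4 to 38.6) and miR-96-5p at 32.4 (16.7 to 52.2). Each was well above background on 21 of 22 arrays; the exception was the same for all 3, replicate 1 of 50 µM at 48 h. The value table lists all 3 at its minimum, -1, on that array. Each level came from the brighter of 2 probes with 20 spots, whose coefficient of variation within an array had a median of 13.3%, 15.6% and 14.1% for miR-182-5p, miR-183-5p and miR-96-5p. The opposite strands miR-182-3p, miR-183-3p and miR-96-3p were well above background on 0 arrays. Of the hepatocyte markers, 7 of 7 were above background, with summed scaled levels at 48 h of 44.7 to 56.7 in DMSO, 46.7 to 58.9 at 10 µM and 48.0 to 51.1 at 50 µM. One by one, 7 of the 7 were lower at 50 than at 10 µM at 48 h (-0.64 to -0.03, median -0.38 beside 0.12 for all tested miRNAs), with miR-148a-3p called (-0.59, adjusted p = 0.0389, limma). Against DMSO at 48 h miR-192-5p was called lower at 50 µM (-0.47, adjusted p = 0.015, limma), and the median of the 7 was -0.19 beside 0.15. By the value-table names the mean of each hepatocyte marker, like that of each member, was thus lower at 50 than at 10 µM at 48 h. Only 1 of the 7 was called, miR-122-5p stood at -0.03 ± 0.13 (SE), and the summed levels of the doses overlapped. Over all tested miRNAs, 7.27% were called lower between the doses and 10.4% against DMSO. The part of the hepatocyte markers in the results was not tested. In such bulk RNA, fewer cells of a type and less RNA per cell cannot be told apart. Markers of bile duct and other epithelia (5 entries), stellate cells (4) and erythroid cells (2) were above background on 0 arrays. Of 5 leukocyte and 2 endothelial markers, 1 each was seen, miR-155-5p and miR-126-3p.

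At 48 h, by the value-table names, the arrays of 10 µM CsA held the highest levels of each member, and the 50 µM arrays overlapped those of DMSO. The members were chosen for being high at 10 µM, so every difference that contains the 10 µM arrays, at either time, is not independent of that choice; between 50 and 10 µM at 48 h no p is given for them. For miR-182-5p, which targets FoxO messenger RNAs and Fbxw7, the DMSO arrays had a lowest, median and highest level of -3.58, -3.26 and -3.08. The 10 µM arrays stood at -2.39, -2.48 and -2.61, and the 50 µM arrays at -4.03, -3.53 and -3.87. All 10 µM arrays lay above all DMSO arrays and all 50 µM arrays, whereas replicate 2 of 50 µM lay within the DMSO range. The fitted difference of 50 minus 10 µM was -1.31 ± 0.17 for miR-182-5p (SE, n = 3 and 3, 2.48-fold lower), with a mean of -3.81 ± 0.26 at 50 µM and -2.50 ± 0.11 at 10 µM (SD).

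The level of miR-183-5p, whose seed bases 2 to 7 are shared by neither of the others, ranged in DMSO from -3.92 to -3.51 with a median of -3.85 at 48 h. It stood at -3.03, -3.17 and -3.20 at 10 µM and at -4.31, -3.77 and -3.97 at 50 µM. The 10 µM arrays were again above all others, and the 50 µM arrays overlapped DMSO. The difference of 50 minus 10 µM was -0.88 ± 0.15 (SE, n = 3 and 3, 1.84-fold lower) and -0.37 with no scaling between arrays, with scaled means of -4.02 ± 0.28 and -3.13 ± 0.09 (SD) at 50 and 10 µM.

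For miR-96-5p, which shares seed bases 2 to 7 with miR-182-5p, the DMSO levels at 48 h had a lowest, median and highest value of -4.04, -3.25 and -2.96, the widest spread of the 3. The 10 µM arrays stood at -2.35, -2.69 and -2.77 and the 50 µM arrays at -3.88, -3.48 and -3.93. The 10 µM arrays were above all others, and 1 DMSO array lay below all 50 µM arrays. The difference of 50 minus 10 µM was -1.16 ± 0.24 (SE, n = 3 and 3, 2.23-fold lower) and -0.65 with no scaling between arrays, with scaled means of -3.76 ± 0.25 and -2.60 ± 0.22 (SD) at 50 and 10 µM.

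**Figure D1:**
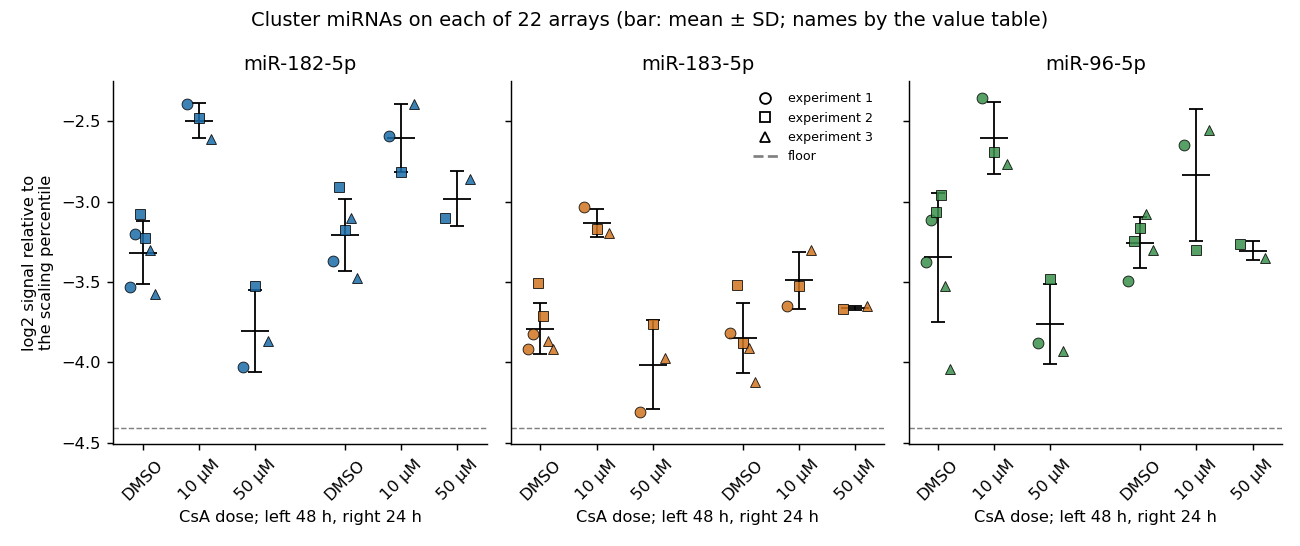
Log2 signal of miR-182-5p, miR-183-5p and miR-96-5p relative to the scaling percentile on each of the 22 arrays, by CsA dose, with 48 h left and 24 h right in each panel; symbols give the experiment, bars the mean ± SD and the dashed line the floor. At 48 h the 10 µM arrays of each member lie above all DMSO and 50 µM arrays.

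Between 50 and 10 µM at 48 h, 28.4% of the 289 tested miRNAs were called at an adjusted p under 0.05, and 7.27% were called lower at 50 µM. With the experiment number as a block 45 miRNAs were lower, against 21 without it. All 3 members were among the lower ones, from which nothing is read, since their choice fixed the 10 µM side. From the most negative difference upward, miR-182-5p ranked 3, miR-96-5p 5 and miR-183-5p 11. All 10 µM arrays lay above all 50 µM arrays for 3 of 3 members and for 25.6% of the tested miRNAs. These ranks and this count share the dependence on the 10 µM arrays. The median difference of all tested miRNAs was 0.12. Within the slide that held all 50 µM arrays, with a single 10 µM array, the differences were -1.33 for miR-182-5p, -0.85 for miR-183-5p and -1.07 for miR-96-5p.

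**Figure D2:**
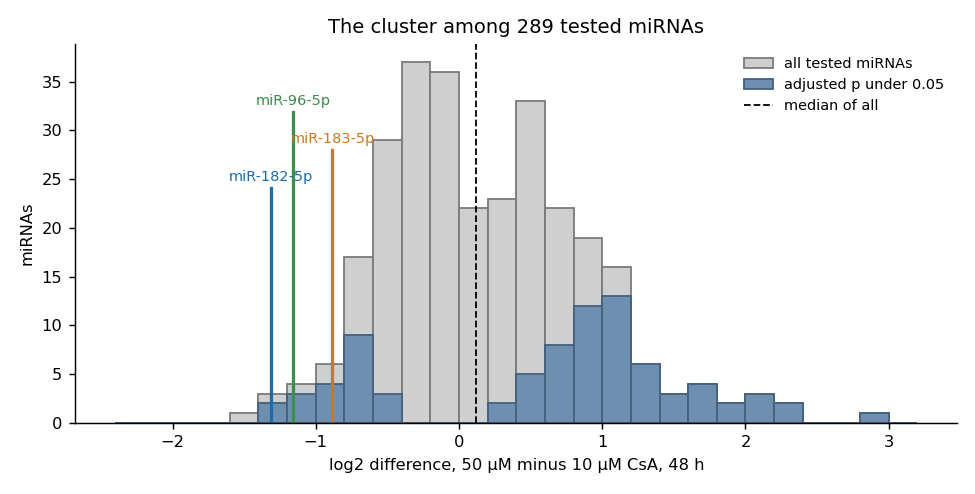
Number of miRNAs (vertical axis) by log2 difference of 50 µM minus 10 µM CsA at 48 h (horizontal axis) for the 289 tested miRNAs, with those at an adjusted p under 0.05 in blue and the 3 members as lines. The members sit at -1.31, -0.88 and -1.16, in the lower tail, with the median of all miRNAs at 0.12.

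By the value-table names, the differences at 48 h were also present experiment by experiment, the 3 experiments being numbered in the labels. They contain the 10 µM arrays that chose the members, so their common sign is no independent test. In experiments 1, 2 and 3, miR-182-5p at 50 µM minus 10 µM stood at -1.64, -1.05 and -1.25. For miR-183-5p these differences were -1.28, -0.59 and -0.78, and for miR-96-5p they were -1.53, -0.79 and -1.16. The files' own names exchange the 10 and 50 µM arrays of experiments 2 and 3, so only experiment 1 keeps its negative sign under them. Experiment 1 gave the most negative difference of each member, and it holds the 50 µM array on which the members were not well above background. Without that array the differences were -1.20, -0.74 and -1.03 for miR-182-5p, miR-183-5p and miR-96-5p.

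Against DMSO at 48 h, the opposite direction at 50 µM passed the test for 1 of the 3 members. The level of miR-182-5p fell by 0.49 ± 0.15 at 50 µM relative to DMSO (SE, n = 3 and 6, 1.404-fold lower, adjusted p = 0.0128, limma), and 2 of the 3 arrays lay below every DMSO array. The value for miR-183-5p was -0.22 ± 0.13 (95% interval -0.51 to 0.06, adjusted p = 0.179) and that for miR-96-5p was -0.42 ± 0.21 (-0.85 to 0.02, adjusted p = 0.118); neither passed. In this comparison 37.7% of the tested miRNAs were called and 10.4% were called lower, beside 1 of the 3 members; with the experiment number as a block 58 miRNAs were lower, against 30 without it. Leaving out single arrays moved miR-183-5p between -0.35 and -0.08, without a call. By experiment the 3 differences from the DMSO mean were -0.67, -0.38 and -0.43 for miR-182-5p, -0.44, -0.15 and -0.08 for miR-183-5p, and -0.64, -0.47 and -0.15 for miR-96-5p. Within the slide of the 50 µM arrays, with 1 DMSO array, they were -0.51, -0.15 and -0.24 for miR-182-5p, miR-183-5p and miR-96-5p. The call of miR-182-5p was lost with slide as a block (-0.49, adjusted p = 0.055), without replicate 1 (-0.38, adjusted p = 0.0784) or replicate 3 of 50 µM (-0.46, adjusted p = 0.0593), when scaled to hepatocyte markers (-0.32, adjusted p = 0.0836) and with no scaling between arrays (-0.02, adjusted p = 0.946). With no scaling, miR-183-5p and miR-96-5p had the other sign, 0.24 and 0.05, and with outlier spots kept miR-183-5p stood at 0.00; with normexp, quantile or all-probe scaling all 3 members were called lower.

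The signals before scaling ordered the arrays differently. For miR-182-5p the DMSO arrays at 48 h had signals of 24.1 to 36.0 units, the 10 µM arrays 48.2, 60.4 and 45.2, and the 50 µM arrays 20.4, 29.1 and 41.5. For miR-183-5p they were 18.4 to 25.1 in DMSO, 31.0, 37.5 and 30.1 at 10 µM, and 16.8, 24.7 and 38.6 at 50 µM. For miR-96-5p they were 20.3 to 34.3 in DMSO, 49.6, 52.2 and 40.5 at 10 µM, and 22.6, 30.2 and 39.8 at 50 µM. The highest 50 µM signal of each was on the array with the scaling percentile of 605.4, and before scaling it exceeded every DMSO array. Over all tested miRNAs the median difference of 50 µM from DMSO was 0.15 as scaled and 0.65 with no scaling.

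At 10 µM the members were chosen for being high, and their differences from DMSO at 48 h were 0.82 ± 0.15 for miR-182-5p, 0.66 ± 0.13 for miR-183-5p and 0.74 ± 0.21 for miR-96-5p (SE, n = 3 and 6), or 1.77-fold, 1.58-fold and 1.67-fold. In that contrast 1.04% of tested miRNAs passed the threshold, from which nothing is read about the members. In experiments 1, 2 and 3 the difference was 0.97, 0.67 and 0.83 for miR-182-5p, 0.84, 0.44 and 0.70 for miR-183-5p, and 0.90, 0.32 and 1.01 for miR-96-5p. Within each of the 2 slides that held both groups it was 0.82 and 0.79 for miR-182-5p, 0.70 and 0.60 for miR-183-5p, and 0.83 and 0.79 for miR-96-5p. A mean above DMSO at 10 µM together with a mean below DMSO at 50 µM was found for 3 of 3 members and for 22.1% of tested miRNAs. No member, and 0 of the 289 tested miRNAs, had all 10 µM arrays above and all 50 µM arrays below the DMSO arrays. The contrasts of the doses with DMSO share the same 6 control arrays.

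**Figure D3:**
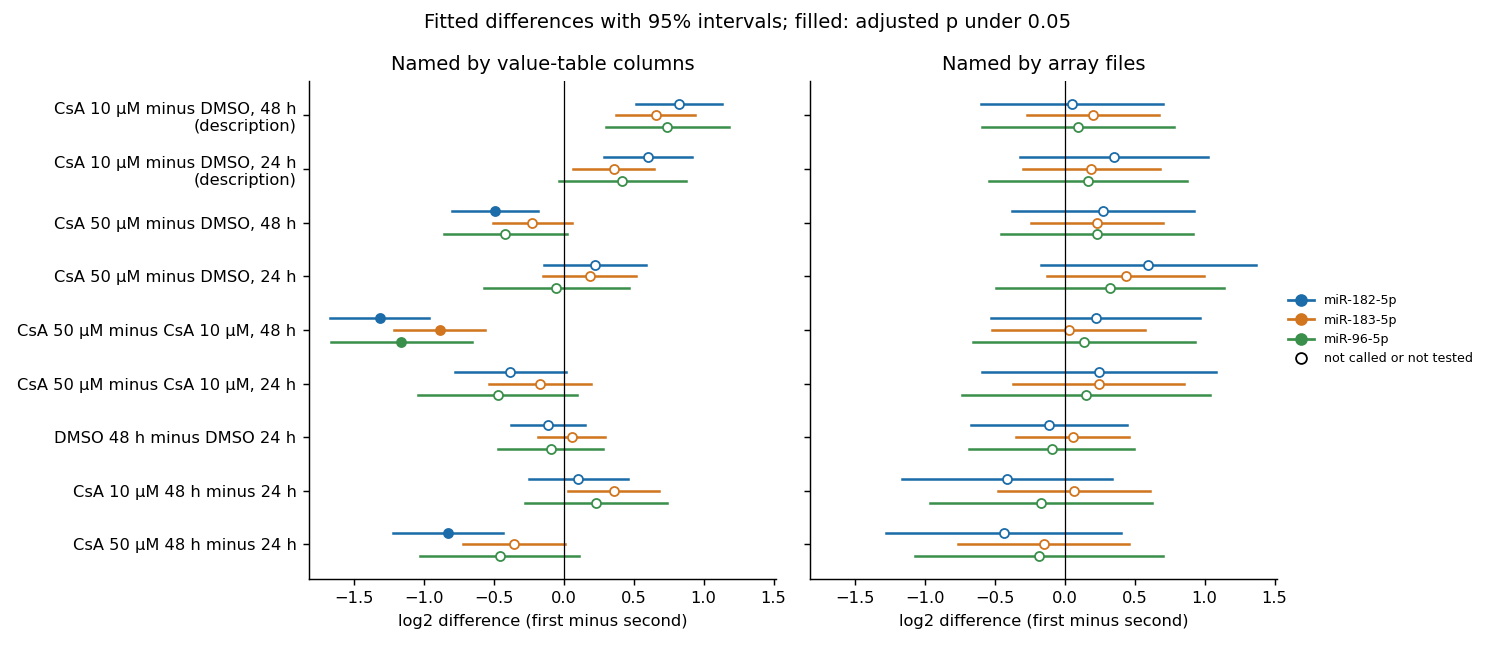
Log2 differences with 95% intervals for the 3 members in each comparison (rows), with arrays named by the value-table columns (left) and by the array files (right). Filled points had an adjusted p under 0.05 and were open to a test, although those of 50 minus 10 µM contain the 10 µM arrays that chose the members; by the files' names no point is filled, and the 48 h differences of 50 minus 10 µM stand at 0.22, 0.03 and 0.14.

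Under the files' own names no difference of a member between the doses, or from DMSO, passed the test at 48 h. By those names the 50 µM arrays at 48 h held miR-182-5p at -4.03, -2.48 and -2.61 and the 10 µM arrays at -2.39, -3.53 and -3.87, so that each dose mixed high and low arrays. The differences of 50 minus 10 µM at 48 h were then 0.22 ± 0.36 for miR-182-5p, 0.03 ± 0.26 for miR-183-5p and 0.14 ± 0.38 for miR-96-5p (SE, adjusted p = 1 each, limma), where 0% of tested miRNAs were called and 17 had an unadjusted p under 0.05. Against DMSO at 48 h the values at 50 µM were 0.28, 0.23 and 0.23 (adjusted p = 0.803, 0.794 and 0.816; 0.346% called). At 10 µM they were 0.06, 0.20 and 0.09, with 6.23% of tested miRNAs called in that contrast. Pooling both doses removes the question of naming, and the differences from DMSO at 48 h were 0.17 ± 0.24, 0.22 ± 0.18 and 0.16 ± 0.25 for miR-182-5p, miR-183-5p and miR-96-5p (adjusted p = 0.716, 0.455 and 0.742; 1.04% called). At 24 h they were 0.45 ± 0.27, 0.29 ± 0.19 and 0.23 ± 0.28 (adjusted p = 0.826, 0.851 and 1; 0% called by limma, 19 miRNAs with an unadjusted p under 0.05). With the experiment number as a block, the pooled contrast at 48 h had 24 calls over all miRNAs in place of 3. Leaving out single arrays gave 1 to 61 calls, with a change of over 1.5 times for 11 of the 12 arrays and 61 without replicate 6 of DMSO. In the blocked fit no member was called (adjusted p = 0.707, 0.415 and 0.72). By the value-table names the doses at 48 h lay on opposite sides of DMSO, at 0.82 for 10 µM and -0.49 for 50 µM in miR-182-5p. A pooled mean near DMSO therefore does not show that either dose left the members unchanged. The pooled values also contain the 10 µM arrays that chose the members.

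At 24 h, by the value-table names, the arrays of 50 µM, of which there were 2, lay near the solvent controls. In DMSO miR-182-5p stood at -3.37, -2.91, -3.17, -3.10 and -3.48, at 10 µM at -2.59, -2.82 and -2.396, and at 50 µM at -3.10 and -2.86. In DMSO miR-183-5p stood at -3.82, -3.52, -3.88, -3.91 and -4.13, at 10 µM at -3.65, -3.52 and -3.30, and at 50 µM at -3.67 and -3.65. In DMSO miR-96-5p stood at -3.49, -3.25, -3.16, -3.08 and -3.30, at 10 µM at -2.65, -3.30 and -2.56, and at 50 µM at -3.26 and -3.35. The 10 µM arrays of miR-182-5p were above all DMSO arrays, while those of the other two overlapped them, and the 50 µM arrays of miR-182-5p overlapped DMSO at its upper end.

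Differences between 50 µM and DMSO at 24 h were 0.22 ± 0.17 for miR-182-5p, 0.19 ± 0.16 for miR-183-5p and -0.05 ± 0.25 for miR-96-5p (SE, n = 2 and 5, adjusted p = 0.6045, 0.6253 and 0.9705, limma), with 3.81% of tested miRNAs called. A block for the experiment number raised the calls to 17, against 11 without it. Between 50 and 10 µM at 24 h the differences were -0.38 ± 0.19, -0.17 ± 0.17 and -0.47 ± 0.27 (adjusted p = 0.628, 0.798 and 0.645), with 0.346% called. The 95% intervals of these 3 differences were -0.78 to 0.02, -0.53 to 0.19 and -1.04 to 0.09. Like all differences with the 10 µM arrays, they are not independent of the choice of the members. Both 50 µM arrays lay below all 10 µM arrays for miR-182-5p and miR-183-5p, but not for miR-96-5p. As a description, 10 µM minus DMSO at 24 h was 0.60 ± 0.15, 0.36 ± 0.14 and 0.42 ± 0.22, in a contrast with 0% called (limma; 16 miRNAs had an unadjusted p under 0.05). In experiments 1, 2 and 3 it was 0.78, 0.22 and 0.89 for miR-182-5p, 0.17, 0.18 and 0.72 for miR-183-5p, and 0.85, -0.10 and 0.63 for miR-96-5p. Experiment 2 stood nearest DMSO for miR-182-5p and miR-96-5p, while experiments 1 and 2 stood about equally near it for miR-183-5p. By the files' own names, 50 µM minus DMSO at 24 h was 0.60, 0.44 and 0.33 for miR-182-5p, miR-183-5p and miR-96-5p. The 50 µM arrays of miR-182-5p then lay above all DMSO arrays. Under those names 50 minus 10 µM at 24 h was 0.25, 0.25 and 0.16, and none of these differences passed the test.

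No member passed the test between the times in solvent or at 10 µM, where the comparison again holds the arrays that chose the members. In DMSO the difference of 48 h minus 24 h was -0.11 ± 0.12 for miR-182-5p, 0.06 ± 0.11 for miR-183-5p and -0.09 ± 0.18 for miR-96-5p (SE, n = 6 and 5, adjusted p = 0.799, 0.917 and 0.916; 0.346% called). A block for the experiment number gave 29 calls, against 1 without it, none of them a member (adjusted p = 0.751, 0.79 and 0.805). At 10 µM the differences were 0.11 ± 0.17, 0.36 ± 0.15 and 0.23 ± 0.24 (adjusted p = 0.89, 0.67 and 0.851; 0% called by limma, 18 miRNAs with an unadjusted p under 0.05), and the block gave 4 calls over all miRNAs.

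Between the times at 50 µM the test was passed by miR-182-5p alone. It fell by 0.83 ± 0.19 at 48 h relative to 24 h (SE, n = 3 and 2, 1.77-fold lower, adjusted p = 0.00834, limma), while miR-183-5p stood at -0.35 ± 0.17 (adjusted p = 0.248) and miR-96-5p at -0.46 ± 0.27 (adjusted p = 0.358); 7.61% of tested miRNAs were called. For each member both 24 h arrays lay above all 3 arrays at 48 h. The call of miR-182-5p was lost without replicate 3 of 50 µM at 24 h (-0.70, adjusted p = 0.131), which is the array with the high negative controls, with the lowest floor (-0.83, adjusted p = 0.0586), and under 5 other settings.

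The difference of 50 minus 10 µM was itself compared between the times, again with the 10 µM arrays that chose the members, so its p is no independent test. It was 0.93 ± 0.25 lower at 48 h than at 24 h for miR-182-5p (-0.93, adjusted p = 0.0492, limma), -0.71 ± 0.23 for miR-183-5p (adjusted p = 0.121) and -0.69 ± 0.36 for miR-96-5p (adjusted p = 0.658), with 3.46% called. This call lay at the threshold, and it was lost when any 1 of 9 of the 11 arrays concerned was left out (adjusted p from 0.0178 to 0.29 over all of them) and under 11 of 13 other settings. The corresponding change in 50 µM minus DMSO was -0.71 ± 0.23, -0.41 ± 0.21 and -0.37 ± 0.32 (adjusted p = 0.0902, 0.399 and 0.661; 3.11% called).

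Ordered by mean level, the groups of miR-182-5p ran from 10 µM at 48 h (-2.50) and 24 h (-2.60) through 50 µM at 24 h (-2.98), DMSO at 24 h (-3.21) and DMSO at 48 h (-3.32) to 50 µM at 48 h (-3.81). Neighbours in this order that were compared did not pass the test, apart from 50 µM and DMSO at 48 h. The same groups were first and last for miR-183-5p (-3.13 and -4.02) and miR-96-5p (-2.60 and -3.76). In between, miR-183-5p stood at -3.49 at 10 µM and 24 h, -3.66 at 50 µM and 24 h, -3.79 in DMSO at 48 h and -3.85 in DMSO at 24 h. The middle groups of miR-96-5p were 10 µM at 24 h (-2.84), DMSO at 24 h (-3.26), 50 µM at 24 h (-3.31) and DMSO at 48 h (-3.35), of which the last 3 lay within 1 SD of each other.

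The members followed each other from array to array. Over the 22 arrays the Pearson correlation was 0.89 between miR-182-5p and miR-183-5p (Spearman 0.89), 0.88 between miR-182-5p and miR-96-5p (0.84) and 0.78 between miR-183-5p and miR-96-5p (0.73). These are descriptions without a p, since the arrays fall into dose groups and each point shares 1 array's scaling; the median over all pairs of tested miRNAs was -0.02. The difference between miR-182-5p and miR-183-5p on an array had an SD of 0.22, that between miR-182-5p and miR-96-5p 0.22 and that between miR-183-5p and miR-96-5p 0.28.

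**Figure D4:**
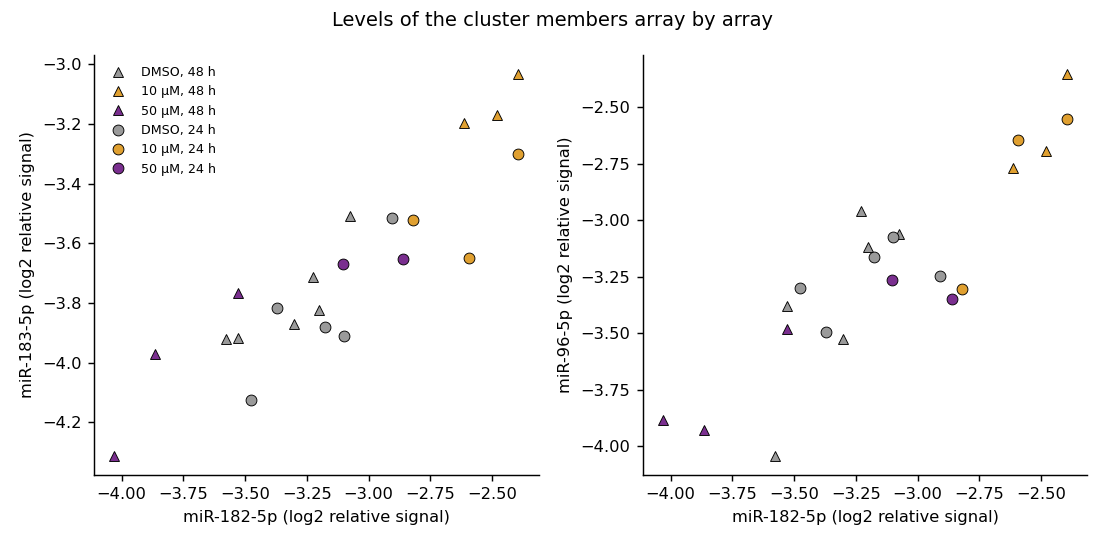
Log2 relative signal of miR-183-5p (left) and miR-96-5p (right) against that of miR-182-5p on the 22 arrays, with colour for dose and symbol for time. The 10 µM arrays at 48 h lie at the upper right and the 50 µM arrays at 48 h at the lower left; the Pearson correlations are 0.89 and 0.88.

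Both probes of miR-96-5p could be read, each well above background on 21 arrays. The dimmer one gave -1.18 ± 0.22 between 50 and 10 µM at 48 h, the brighter one -1.16 ± 0.24 (SE). The dimmer probes of miR-182-5p and miR-183-5p were at the floor on 22 and 21 arrays, so each of these members rests on 1 probe. In the deposited value table, whose log2 values are on another scale, miR-182-5p averaged 3.51 ± 0.45 in DMSO at 48 h (SD, n = 6), 4.29 ± 0.20 at 10 µM (n = 3) and 1.02 ± 1.82 at 50 µM (n = 3, with 1 array at the minimum).

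Outside the cluster, the 5 miRNAs whose levels ran most like the mean of the members over the 22 arrays were miR-148a-3p (Pearson r = 0.72), miR-21a-5p (0.71), miR-140-5p (0.68), miR-16-5p (0.68) and miR-15a-5p (0.67). Each member correlated with that mean at 0.92 or more, but each is part of the mean, so these values cannot be compared with the others. The 5 miRNAs were picked by likeness on these arrays, so their differences of 50 minus 10 µM at 48 h are a description: -0.59 ± 0.21 for miR-148a-3p, -0.79 ± 0.20 for miR-21a-5p, -0.54 ± 0.19 for miR-140-5p, -0.32 ± 0.18 for miR-16-5p and -0.49 ± 0.22 for miR-15a-5p (SE).

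Of 19 miRNAs linked to sterol and lipid metabolism, the process in which the cluster is known in mouse liver, 13 were tested. Between 50 and 10 µM at 48 h, 1 was higher and 4 were lower, with a median of -0.46 beside 0.12 for all tested miRNAs, of which 28.4% were called and 7.27% called lower. The higher one was miR-370-3p (2.09 ± 0.45, adjusted p = 0.00188), and among the lower were miR-185-5p, reported in human cells to repress the scavenger receptor SR-BI (-0.69 ± 0.19, adjusted p = 0.0123), miR-27b-3p (-0.65 ± 0.20) and miR-103-3p (-0.57 ± 0.17, adjusted p = 0.0187 each); miR-148a-3p was the fourth. In 50 µM against DMSO at 48 h, 1 rose (miR-370-3p, 2.47 ± 0.39) and 4 fell (miR-103-3p, miR-185-5p, miR-27b-3p and miR-130a-3p, from -1.07 to -0.64), with a median of -0.37 beside 0.15 for all tested miRNAs, of which 37.7% were called and 10.4% called lower. Of 13 miRNAs with known effects on FoxO messenger RNAs, as miR-182 and miR-96 have, 6 were tested. Between 50 and 10 µM at 48 h 1 of these was higher and 2 were lower (median -0.51 beside 0.12, with 28.4% of all tested miRNAs called), namely miR-370-3p and miR-27b-3p, which the lipid list also holds, and miR-21a-5p. Against DMSO miR-370-3p and miR-155-5p (0.73 ± 0.17) rose and miR-27b-3p and miR-21a-5p fell (median -0.68 beside 0.15, with 37.7% of all tested miRNAs called). All calls of both lists use the value-table names. By the files' own names 0 of the 289 tested miRNAs were called between 50 and 10 µM at 48 h, so no list call remained there. In 50 µM against DMSO at 48 h those names left 1 call over all tested miRNAs, a lower one.

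For the difference between 50 and 10 µM at 48 h, the naming of the arrays moved each member further than any of the other settings tried, apart from the value table's own log2 values.

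**Figure D5:**
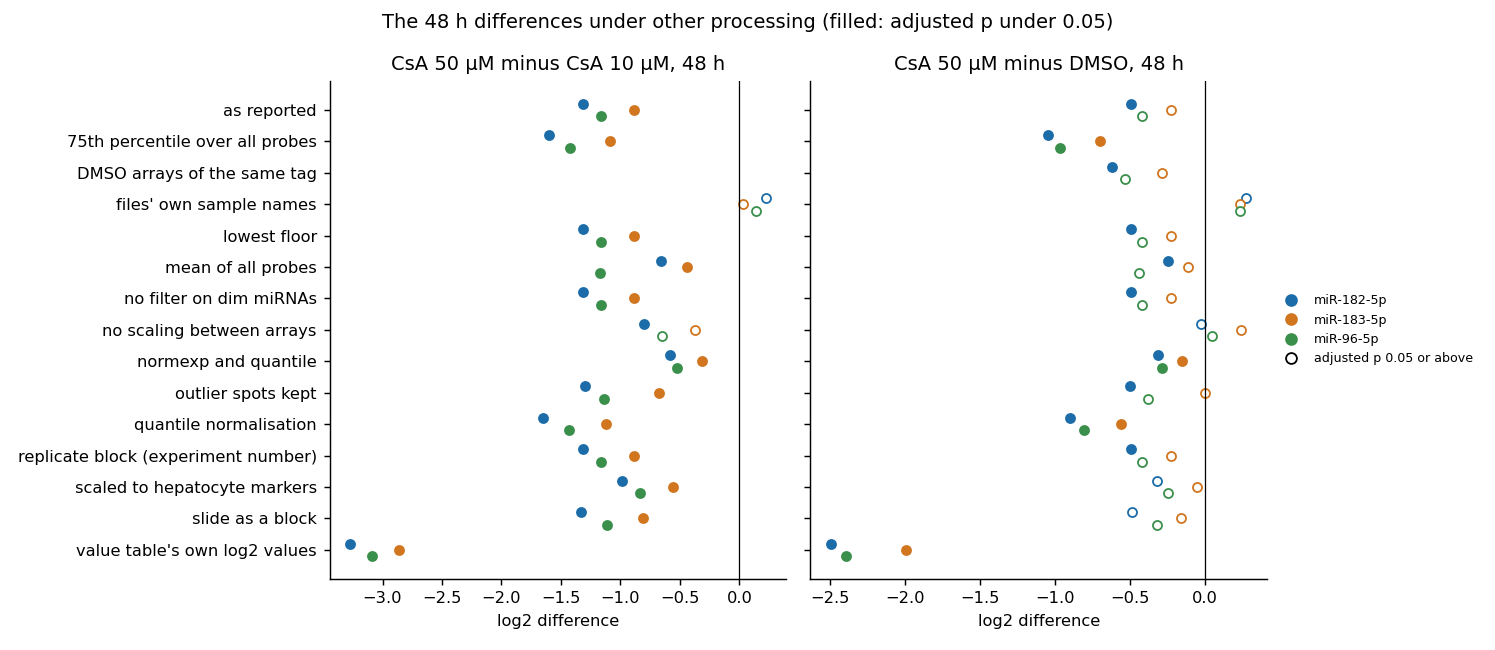
Log2 difference of 50 minus 10 µM (left) and of 50 µM minus DMSO (right) at 48 h for the 3 members as reported and under each other setting (rows), filled where the adjusted p was under 0.05. On the left all points by the value-table names are negative, and only the files' own names give values at or above 0. The left differences contain the 10 µM arrays that chose the members, so nothing is read from their filled points.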

How the data were processed

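MicroRNAs were measured in 22 single-colour Agilent arrays of primary mouse hepatocytes, and per the file headers the intensity of each spot is a processed signal from Feature Extraction 10.7.3.1. The deposited value table holds log2 values by the authors, who used R 2.15.2 per the submitters' processing notes; it was rebuilt by raising each total gene signal to at least 0.5, quantile normalisation and log2, and its columns all have a median of -1. From the 49880 spots of 3105 probes and 1247 miRNAs, non-outlier spots were averaged per probe, scaled to a percentile of their array, the 75th among those 281 probes that every array measured well above background (188.5 to 605.4), floored at 0.0471 and put on the log2 scale. A probe counted as well above background where at least 0.5 of its spots were; 14.4% of pairs of a probe and an array were, and 0 spots were saturated. The brightest probe stood for a miRNA, and 289 miRNAs above background on at least 3 arrays were tested, the members among them. Tests used limma 3.58.1 in R 4.3.3 with 1 model over the 6 groups and Benjamini-Hochberg adjustment over all 289, called at an adjusted p under 0.05; pooled doses had a fit of their own with the doses merged. The number of arrays limits the precision. The p-values weigh a difference against the spread between these arrays, and the main fit treats arrays of the same experiment as separate.

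The members and lists were chosen with earlier results of these data known. The genes named are the members, their opposite strands, the fixed lists and the 5 miRNAs most like the members' mean by Pearson correlation over the arrays. Alternatives were the naming of arrays, the value table, the scaling percentile, quantile normalisation, normexp with an offset of 50, the filter, the mean of probes, outlier spots, slide or experiment number as a block, DMSO arrays of the same label tag, and leaving out each array. The further ones (no scaling, scaling to hepatocyte markers, the lowest floor) were chosen after seeing the data. Same-numbered experiments deviated together at 48 h, with correlations of 0.371, 0.275 and 0.435 for 50 with 10 µM, 0.361, 0.520 and 0.511 for 50 µM with DMSO, and 0.781, 0.109 and 0.783 for 10 µM with DMSO; at 24 h that of 10 µM with DMSO was -0.210 in experiment 2. The series text speaks of 2 more arrays, which were not analysed here.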

Additional observations from a re-analysis of the deposited data

Results flagged for a closer look

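The levels at 50 and 10 µM at 48 h stood out for each member, but the members were chosen for being high at 10 µM, so this is no independent test of a difference between the doses. The difference of 50 minus 10 µM was -1.31 for miR-182-5p, -0.88 for miR-183-5p and -1.16 for miR-96-5p. By the array files' own sample names these values were 0.22, 0.03 and 0.14, and which naming is right was not settled by the labels. For miR-182-5p the change of this difference between the times was -0.93, 48 h minus 24 h, with the same dependence on the 10 µM arrays and an adjusted p of 0.0492 by limma that rose to as much as 0.29 when single arrays were left out.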

How the results depend on the processing

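Over 39 results of the members, 797 of 864 recomputed values were counted as kept, and for the others the cause was not tested. Tested results counted as changed where a call was gained, lost or reversed, so an uncalled value that changed sign counted as kept. Examples are miR-183-5p and miR-96-5p at 50 µM against DMSO at 48 h, each 0.23 by the files' names. Described differences at 10 µM have no call and counted as changed where the value moved. By the files' own names, 50 minus 10 µM at 48 h was 0.22, 0.0296 and 0.14 for miR-182-5p, miR-183-5p and miR-96-5p, and miR-182-5p was 0.28 at 50 µM against DMSO. That last result was -0.49 with slide as a block, -0.0241 with no scaling and -0.32 scaled to hepatocyte markers, none of them called. At 50 µM against DMSO at 48 h, miR-183-5p and miR-96-5p became called with the value table's values (-1.99 and -2.39), all probes in the percentile (-0.70 and -0.97), quantile normalisation (-0.56 and -0.80) and normexp (-0.15 and -0.29). With no scaling, 50 minus 10 µM at 48 h was -0.37 for miR-183-5p and -0.65 for miR-96-5p, neither called.

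The described difference of 10 µM from DMSO at 48 h moved, for miR-182-5p, to 0.0557 by the files' names, 0.55 with all probes in the percentile, 0.27 with normexp and 0.41 with the mean of probes. For miR-183-5p it moved to 0.20, 0.39, 0.16 and 0.33 under those settings, 0.87 with the value table and 0.51 with hepatocyte markers. For miR-96-5p it moved to 0.0937 by the files' names and 0.23 with normexp. At 24 h it was 0.35 by the files' names, 0.26 with normexp and 0.30 with the mean of probes for miR-182-5p, and 0.10 with normexp for miR-183-5p. Scaling to hepatocyte markers brought calls for 48 h minus 24 h at 10 µM (0.68 for miR-183-5p, 0.55 for miR-96-5p).

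For miR-182-5p, 48 h minus 24 h at 50 µM lost its call by the files' names (-0.43), with all probes (-1.16), normexp (-0.36), no scaling (-0.26), hepatocyte markers (-0.40) and the lowest floor (-0.83). Its change in 50 minus 10 µM between the times lost its call by the files' names (-0.0239), with the value table (-2.50), all probes (-0.99), quantile normalisation (-1.04), normexp (-0.32), the mean of probes (-0.47), outlier spots kept (-0.93), slide as a block (-0.98), no scaling (-0.37), hepatocyte markers (-0.83) and the lowest floor (-0.93).

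Leaving out single arrays, miR-182-5p at 50 µM against DMSO at 48 h ranged from -0.63 to -0.38, its 48 h minus 24 h at 50 µM from -0.97 to -0.70, its change in 50 minus 10 µM from -1.07 to -0.81 and its change in 50 µM minus DMSO from -0.85 to -0.59, the last called without replicate 2 of 50 µM or replicate 6 of DMSO at 48 h. For miR-96-5p, 50 µM against DMSO at 48 h ranged from -0.56 to -0.33 and was called without replicate 6 of DMSO (adjusted p = 0.0122), and that of miR-183-5p ranged from -0.35 to -0.08, never called. At 50 minus 10 µM and 48 h the ranges were -1.45 to -1.20, -1.01 to -0.74 and -1.30 to -1.03 for miR-182-5p, miR-183-5p and miR-96-5p. Leaving out 1 array does not undo the choice of the members by the 10 µM arrays, so nothing is read from calls here.

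With the experiment number as a replicate block, 50 minus 10 µM at 48 h stayed at -1.31, -0.88 and -1.16, and no call of a member changed; the counts over all miRNAs moved by over 1.5 times for the changes with time, to 30 in place of 9 in 50 µM minus DMSO and 22 in place of 10 in 50 minus 10 µM. Of the 82 calls 61 were higher at 50 µM and 21 lower, a split that was 72 and 45 with the replicate block, 42 and 36 with quantile normalisation, 34 and 35 with the value table, 38 and 39 with normexp and 89 and 1 with no scaling, and all probes gave 34 and 7. Of the 109 calls 79 were higher and 30 lower, against 97 and 58, 63 and 56, 42 and 62, 54 and 81, 121 and 5, and 41 and 71 under the same settings. The files' names left 0 and 1 of these calls, and leaving out arrays gave 45 to 83 and 72 to 173. Dimness limits the members: on replicate 1 of 50 µM at 48 h none was well above background.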
